A study of Mus musculus with 8 samples.

Results

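The genes described here run autophagy and the lysosome. They were taken from a list of 43 gene symbols drawn up by function. A gene was read through a probe set annotated with exactly 1 symbol, and where several probe sets named it, through the one with the highest mean log2 intensity over all arrays. By this rule 41 of the 43 genes were measured, among 18193 genes read the same way. The cargo receptor Optn and the lysosomal membrane protein Cd63 had no probe set named for them in the annotation used here. Of the 41, 20 act in autophagy, 20 act in the lysosome, and Tfeb is a transcription factor for both.

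The study reverse-transfected NG4 mouse embryonic stem cells with small interfering RNA (siRNA) and hybridised their RNA to Affymetrix arrays 48 hours later. The 4 groups were siNonTarget, the control siRNA, siSox2, against a transcription factor that maintains pluripotency, siPsmd14, against a deubiquitinase of the proteasome lid, and siDdb1, against an adaptor subunit of cullin-4 ubiquitin ligases. Each group had 2 arrays, and all 4 groups shared the cell line, the transfection and the 48 hour time point. No dose, siRNA sequence or culture history is given in the labels, and nothing there says that the 2 arrays of a group came from separate cultures, so the p-values measure the spread between arrays, which may be technical.

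Macroautophagy encloses cytoplasm in a double membrane and delivers it to the lysosome. The ULK kinase complex starts the process, a lipid kinase complex containing BECN1 and the WIPI proteins mark the membrane, and 2 conjugation systems attach ATG8 proteins (LC3 and GABARAP) to it. Cargo receptors tie ubiquitin-tagged material to the ATG8 proteins, and cathepsins, glycosidases and their cofactors then break the contents down inside the lysosome. The transcription factor TFEB binds an E-box-like element in the promoters of many lysosomal genes. Autophagy and the proteasome are the main routes by which a cell degrades ubiquitin-tagged proteins, and siPsmd14 is directed at a subunit of the proteasome.

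All levels below are log2 intensities after robust multi-array averaging (RMA), and a difference of 1 is a 2-fold change. Median intensities of the 8 arrays ran from 27.37 to 28.83, and the number of arrays, 2 per group, limits the precision. At the median standard error (SE) of 0.151, a 95% interval spans 0.342 either side of a log2 difference. A gene was called when limma's moderated test, fitted on all 8 arrays and adjusted by Benjamini-Hochberg over all probe sets, gave an adjusted p below 0.05. The labelled cell type was borne out by its markers: the 7 embryonic stem cell markers averaged 11.91 to 12.44 on every array, while 7 fibroblast markers averaged 4.15 to 4.36 and 7 macrophage markers 3.81 to 4.22. Of the targeted genes, Ddb1 read 11.88 and 11.81 on the control arrays and 9.67 and 10.73 under siDdb1, a log2 difference of -1.65 (SE 0.28, limma adjusted p = 0.147). Sox2 fell short of the threshold under siSox2 (-0.38, SE 0.16, limma adjusted p = 0.301), as did Psmd14 under siPsmd14 (-0.21, SE 0.13, limma adjusted p = 0.522), each read by a single probe set. In bulk RNA, fewer cells of a type and less RNA per cell cannot be told apart.

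The members were well represented in these cells. Mean log2 intensity ran from 4.06 for Ulk2, one of the ULK kinases, to 11.93 for Lamp1, a heavily glycosylated protein of the lysosomal membrane, with a median of 9.43. The mean was above the median over all genes, 6.26, for 36 of 41 members. Probes differ in brightness for the same amount of RNA, so these levels do not rank the genes by abundance.

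**Figure D1:**
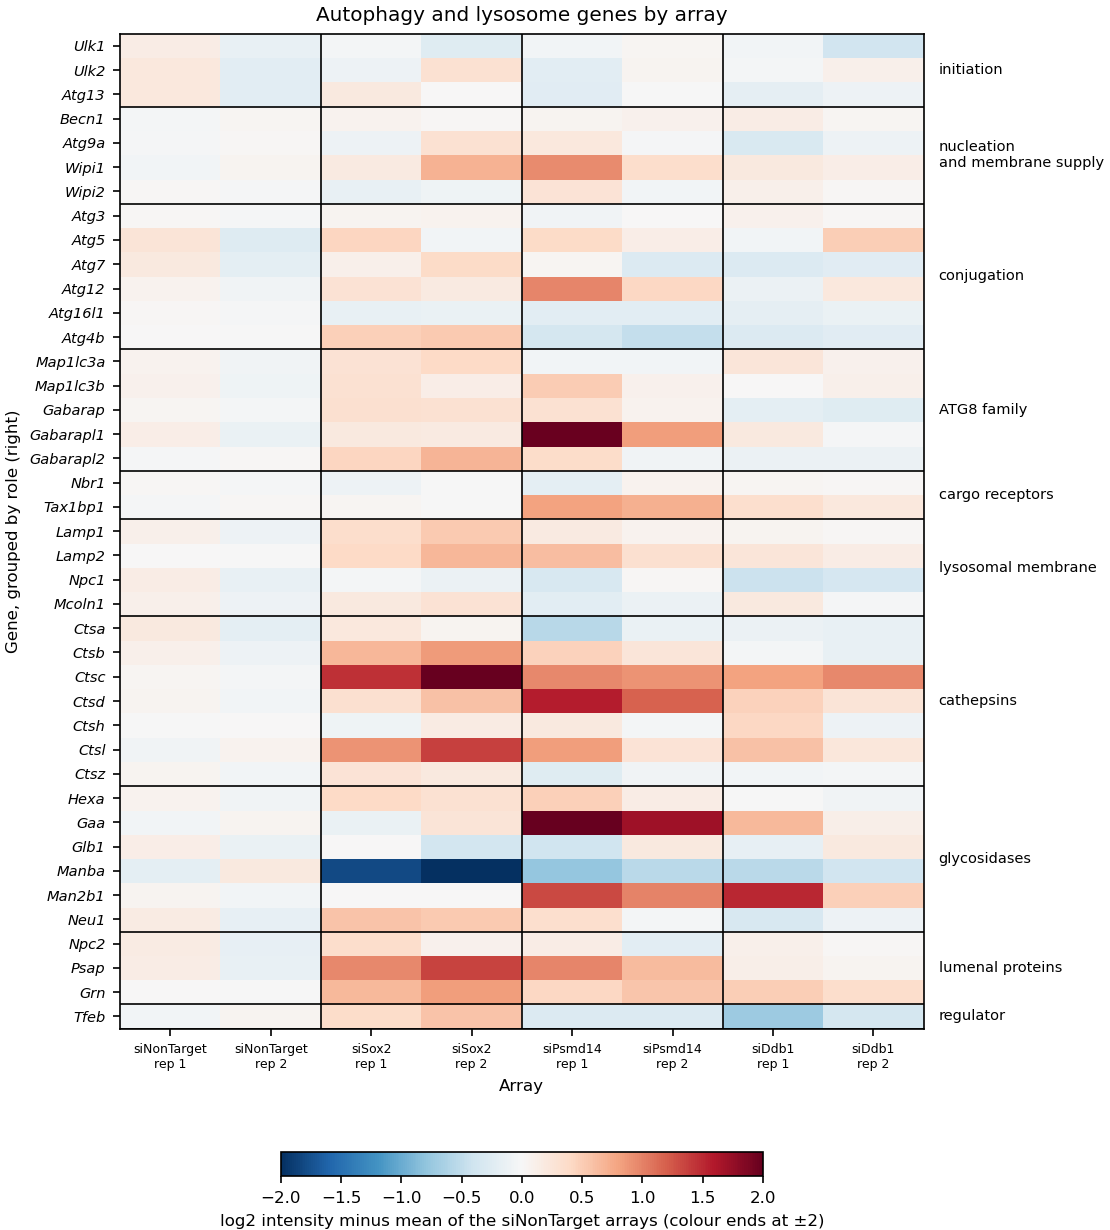
Log2 intensity of the 41 measured autophagy and lysosome genes (rows, grouped by role) on each of the 8 arrays (columns), minus the mean of the 2 siNonTarget arrays; the colour scale runs from -2 to 2. Manba is lowest on the 2 siSox2 arrays and Gaa highest on the 2 siPsmd14 arrays, while most rows of the autophagy machinery stay pale.

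With Psmd14 siRNA, 3 members rose and none fell: the lysosomal glucosidase Gaa, the aspartic protease Ctsd and the ubiquitin-binding cargo receptor Tax1bp1. The background was 1.70% of genes called higher and 0.187% called lower in this comparison. Among genes with a mean log2 intensity of at least 5, as 39 of the members have, it was 2.44% and 0.258%. Gaa, which releases glucose from glycogen in the lysosome, read 8.14 and 8.25 on the control arrays and 10.51 and 9.88 under siPsmd14. The log2 difference was 2.0 (SE 0.24, limma adjusted p = 0.00966), a 4.01-fold rise, and the lower siPsmd14 array lay well above the higher control array. A second probe set for Gaa gave 2.10 (limma adjusted p = 0.0057), while on the scale of log2(intensity + 16) the Gaa call was lost (1.95, limma adjusted p = 0.0543).

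Ctsd, the main aspartic protease of the lysosome, read 10.08 and 9.97 in the controls and 11.59 and 11.21 under siPsmd14. Its rise was 1.37 on the log2 scale (SE 0.17, limma adjusted p = 0.00993), or 2.59-fold, without overlap between the groups. Tax1bp1, which brings ubiquitin-tagged cargo to the growing autophagosome, read 10.13 and 10.19 in the controls and 10.96 and 10.87 under siPsmd14. It rose by 0.75 (SE 0.12, limma adjusted p = 0.0240), the only one of the 20 autophagy members called. Of 3 further Tax1bp1 probe sets, 2 were also called, at 0.91 and 0.72, and a dim one gave 0.06. With only the 4 arrays of the groups compared in the fit, the Tax1bp1 call was lost (limma adjusted p = 0.0567).

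Several members lay higher under siPsmd14 without passing the test. Gabarapl1, an ATG8 protein, read 8.75 and 8.48 in the controls and 10.59 and 9.45 under siPsmd14, a difference of 1.40 (SE 0.30, limma adjusted p = 0.0663). The 2 siPsmd14 arrays were further apart from each other than the 2 controls, though both lay above them. The lysosomal alpha-mannosidase Man2b1 read 9.78 and 9.66 in the controls and 11.05 and 10.71 under siPsmd14 (1.16, SE 0.28, limma adjusted p = 0.0931). For Ctsc, a dipeptidyl peptidase that activates serine proteases, the control arrays read 7.52 and 7.46 and the siPsmd14 arrays 8.45 and 8.39 (0.93, limma adjusted p = 0.0603). Psap, precursor of the saposins that present sphingolipids to lysosomal hydrolases, read 10.12 and 9.82 against 10.95 and 10.61 (0.81, limma adjusted p = 0.0765). In each of these genes both siPsmd14 arrays were above both control arrays, which 2 arrays per group can give by chance. They passed under some alternatives: Gabarapl1 with trend and robust eBayes (limma adjusted p = 0.0420) and with the replicate block (0.0407), Man2b1 with 4 arrays only (0.0249), Ctsc with 4 arrays only (0.0276) and with 1 probe set per gene (0.0489), and Psap with trend and robust eBayes (0.0494).

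By role, the median log2 difference under siPsmd14 was 0.35 over the 7 cathepsins, 0.23 over the 6 glycosidases, 0.48 over the 3 lumenal proteins Npc2, Psap and Grn, and -0.01 over the 4 lysosomal membrane proteins. It was -0.08 over the 6 conjugation genes and -0.08 over the 3 initiation genes. The other autophagy roles had medians above 0. These were 0.35 over the 2 cargo receptors measured, 0.19 over the 5 ATG8 genes and 0.10 over the 4 genes Becn1, Atg9a, Wipi1 and Wipi2. The median was 0.08 over the 20 autophagy members and 0.23 over the 20 lysosome members. Among the conjugation genes the smallest p belonged to Atg12, the ubiquitin-like protein joined to ATG5, at 0.70 (limma adjusted p = 0.136). Atg4b, the protease that trims and recycles ATG8 proteins, stood at -0.42 (limma adjusted p = 0.142). Wipi1, which binds phosphoinositide on the forming membrane, stood at 0.65 (limma adjusted p = 0.206), and Lamp2, a receptor and structural protein of the lysosomal membrane, at 0.47 (limma adjusted p = 0.177). Atg13, the scaffold of the ULK complex, had the smallest p of its role and stood at -0.11 (limma adjusted p = 0.826). Over all 41 members the median was 0.11, with 24 above 0 and 17 below, against -0.01 over all genes. The arrays differed in this: the median over the members was 0.21 from siPsmd14 replicate 1 alone and 0.06 from replicate 2 alone, and over the glycosidases 0.40 and 0.17.

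For 30 of the 41 members the 95% interval of the siPsmd14 difference lay within 2-fold in either direction. The siPsmd14 calls rest on few arrays: with either control array or siPsmd14 replicate 1 left out, limma called 0 members. It then called 0.0511% (siNonTarget replicate 1 left out), 0.0377% (siNonTarget replicate 2) and 0.149% (siPsmd14 replicate 1) of all probe sets, whereas leaving out siPsmd14 replicate 2 gave 5 members and 2.88% of probe sets. Without siPsmd14 replicate 1, Gaa stood at 1.69 (limma adjusted p = 0.0576), Ctsd at 1.18 (limma adjusted p = 0.0646) and Tax1bp1 at 0.71 (limma adjusted p = 0.153), and without siPsmd14 replicate 2 Gabarapl1 stood at 1.97 (limma adjusted p = 0.00311). That replicate 1 array had the widest gap between the 3-prime and 5-prime Actb control probe sets, 0.346 on the log2 scale against 0.0962 to 0.214 on the other 7 arrays. The siPsmd14 replicate 2 array had the highest mean signal over the 18S ribosomal RNA control probe sets, 13.06 against 11.00 on replicate 1 and 11.18 and 11.61 on the controls. That signal was 11.70 and 12.68 on siDdb1 replicates 1 and 2, and 11.11 and 11.85 on siSox2 replicates 1 and 2. Of the 7 trophoblast markers, Krt7 was called higher under siPsmd14 (1.94, limma adjusted p = 0.0218), and 7 markers of primitive or visceral endoderm, none of them called, averaged 4.797 and 4.84 against 4.30 to 4.36 in the controls. The part of these differences in the siPsmd14 results was not tested.

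The stretches of promoter that hold the core of the TFEB-bound element are shown because Gaa and Ctsd, the 2 lysosomal genes called under siPsmd14, both carry it. The motif searched was TCACGTG on either strand (CACGTGA on the other), which contains the palindromic E-box CACGTG, in the window from 250 bases before to 50 bases after the RefSeq start on GRCm38.p6. Capitals mark the motif. The 250 bases before the start of Gaa (chr11:119267713-119267962, plus strand) and of Ctsd (chr7:142387828-142388077, minus strand) read as follows, 5′ to 3′ in the sense of the gene.
Gaa: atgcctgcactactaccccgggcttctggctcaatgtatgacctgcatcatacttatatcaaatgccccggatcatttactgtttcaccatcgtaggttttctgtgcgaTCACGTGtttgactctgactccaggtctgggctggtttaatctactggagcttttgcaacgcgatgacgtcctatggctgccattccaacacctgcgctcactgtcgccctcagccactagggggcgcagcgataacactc
Ctsd: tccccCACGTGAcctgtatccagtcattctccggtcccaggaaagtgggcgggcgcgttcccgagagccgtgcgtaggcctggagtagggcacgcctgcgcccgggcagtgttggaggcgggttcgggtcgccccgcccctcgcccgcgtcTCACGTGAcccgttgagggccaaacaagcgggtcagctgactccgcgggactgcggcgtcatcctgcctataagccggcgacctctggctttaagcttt
Gaa holds 1 site and Ctsd holds 2. The site of Gaa begins 141 bases before the start, and those of Ctsd begin 245 and 99 bases before it.

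A further 6 members hold the motif, and none of them was called in any of the 6 comparisons. They are Lamp1 (chr8:13159082-13159168, plus strand), the lysosomal carboxypeptidase Ctsa (chr2:164833743-164833801, plus strand), the lysosomal cation channel Mcoln1 (chr8:3500430-3500497, plus strand), the beta-galactosidase Glb1 (chr9:114401012-114401052, plus strand), the E1-like enzyme Atg7 (chr6:114670946-114670986, plus strand) and the E2-like enzyme Atg3 (chr16:45158717-45158781, plus strand). The stretches around their sites are shown for comparison with Gaa and Ctsd.
Lamp1: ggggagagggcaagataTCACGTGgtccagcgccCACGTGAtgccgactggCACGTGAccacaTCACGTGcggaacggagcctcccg
Ctsa: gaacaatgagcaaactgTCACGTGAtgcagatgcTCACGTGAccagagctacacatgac
Mcoln1: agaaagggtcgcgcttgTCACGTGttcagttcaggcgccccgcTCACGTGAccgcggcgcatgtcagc
Glb1: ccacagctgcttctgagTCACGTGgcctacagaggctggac
Atg7: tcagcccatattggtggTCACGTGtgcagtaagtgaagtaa
Atg3: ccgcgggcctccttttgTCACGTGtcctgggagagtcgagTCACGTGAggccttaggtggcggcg
Lamp1 holds 4 sites within its stretch, Ctsa, Mcoln1 and Atg3 hold 2 each, and Glb1 and Atg7 hold 1 each.

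The promoter table held 34 of the 41 members, and 8 of these (23.5%) hold TCACGTG, against 1160 of 27025 genes (4.29%) in the whole table. Among the genes of the table that have a probe set on the array, 838 of 14453 (5.80%) hold it. The palindrome CACGTG alone was found in 29.4% of the members and in 8.09% of all genes. The motif lay in 6 of 17 lysosome members (35.3%) and in 2 of 16 autophagy members (12.5%). Of 75 further autophagy and lysosome genes in the table, 16 (21.3%) hold it. The motif and the change under siPsmd14 went together in Gaa and Ctsd but not beyond them: the other 6 members with the motif lay between -0.34 and 0.12 in log2 difference, and Tax1bp1 rose without it. The median siPsmd14 difference was -0.07 over the 8 members with the motif and 0.17 over the 26 without. Under siSox2, limma called 0 of the 8 with the motif and 5 of the 26 without, and Ctsb has no entry in the promoter table. Of the 8, Lamp1 and Ctsd had an unadjusted limma p under 0.05, as did 3476 of all 18193 genes. A match of letters is a description of the window and shows no binding.

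**Figure D2:**
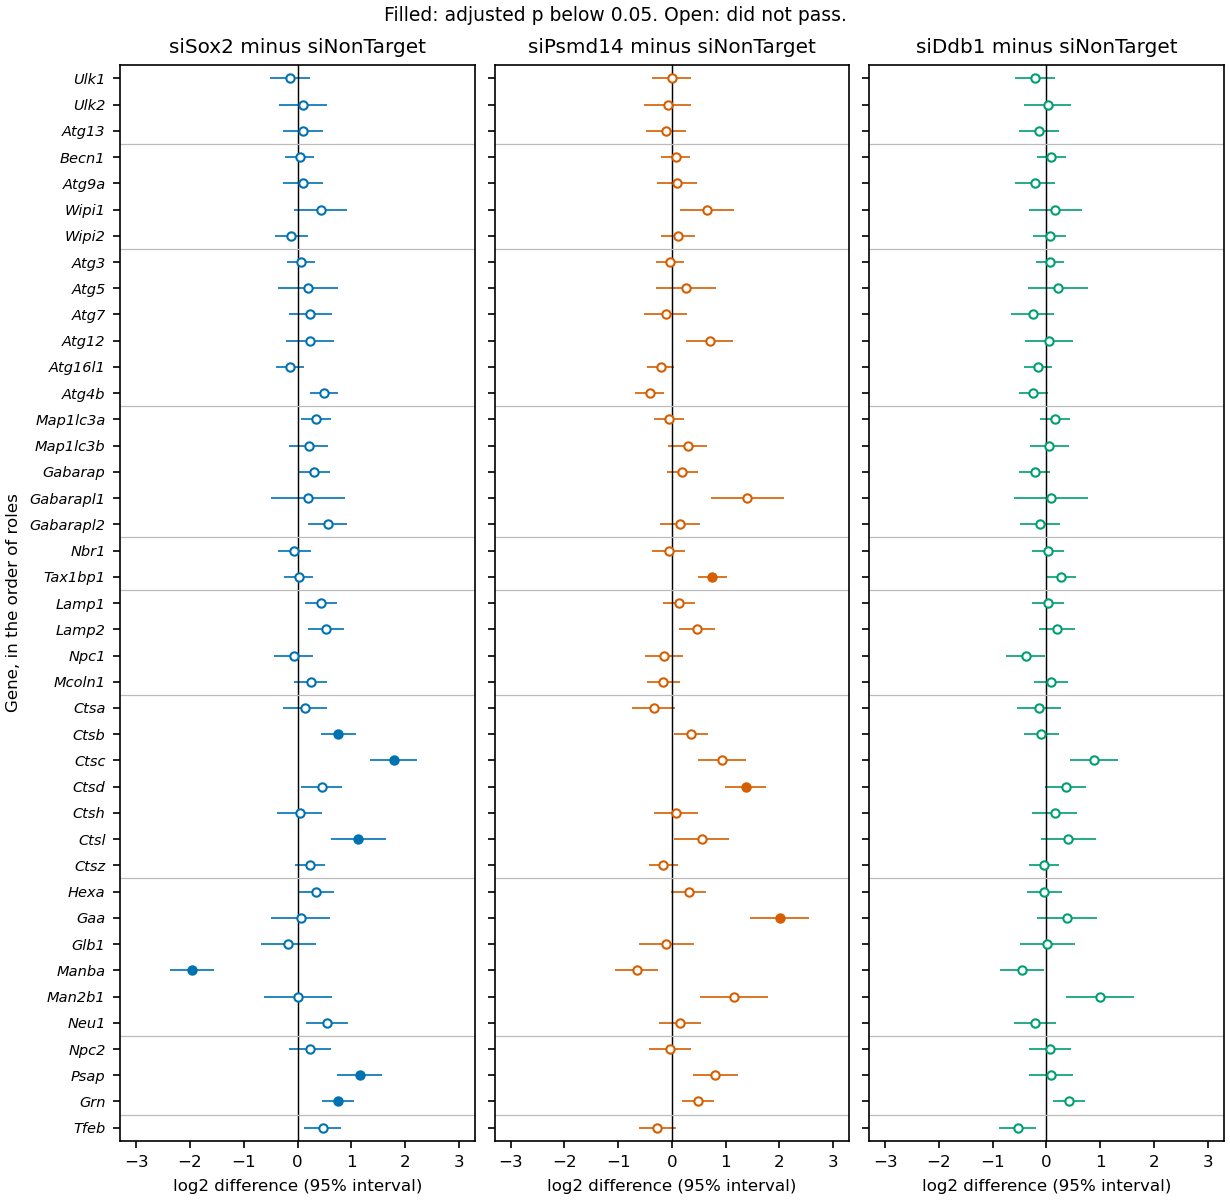
Log2 difference from siNonTarget for each of the 41 members (rows, by role) under siSox2, siPsmd14 and siDdb1, with 95% intervals from limma on 8 arrays; filled points have an adjusted p below 0.05. Filled points number 6 under siSox2, 3 under siPsmd14 and 0 under siDdb1, and the siDdb1 points lie between -0.53 and 0.99.

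With Sox2 siRNA, 6 of the 20 lysosome members were called and 0 of the 20 autophagy members, of which 4 had an unadjusted p under 0.05 in limma. Over all genes, 3476 of 18193 had such an unadjusted p. The cathepsins Ctsc, Ctsl and Ctsb rose, as did Psap and Grn, the precursor of the granulins, and the beta-mannosidase Manba fell. The count was 5 members higher, against a background of 2.81% of genes, and 1 lower, against 1.46%. Members with a mean log2 intensity of at least 5 number 39, and among all genes that bright 3.97% were called higher and 2.22% lower.

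Manba, which removes the last mannose from N-linked oligosaccharides, read 10.31 and 10.72 on the control arrays and 8.71 and 8.38 under siSox2. It fell by 1.97 on the log2 scale (SE 0.18, limma adjusted p = 0.00114), to a level 3.91 times lower, with a wide gap between the groups. Ctsc read 7.52 and 7.46 in the controls and 8.95 and 9.60 under siSox2, a rise of 1.79 (SE 0.19, limma adjusted p = 0.00255) or 3.45-fold. Thus 2 enzymes of the same organelle moved in opposite directions in the same arrays.

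Among the other cathepsins, Ctsl, an endopeptidase, read 11.27 and 11.40 in the controls and 12.23 and 12.70 under siSox2 (1.13, SE 0.22, limma adjusted p = 0.0334). Ctsb, which acts as an endopeptidase and a peptidyl-dipeptidase, read 9.72 and 9.53 against 10.29 and 10.48 (0.76, SE 0.14, limma adjusted p = 0.0255). All 7 cathepsins had a difference above 0, with a median of 0.45, and 3 of them were called. With the mean of all probe sets of a gene, dim ones included, the calls of Ctsl (0.46, limma adjusted p = 0.0820) and Ctsb (0.47, limma adjusted p = 0.0816) were lost and Ctsc stood at 0.73, and Ctsl was also lost with log2(intensity + 16) (limma adjusted p = 0.0906). Ctsd, called under siPsmd14, stood at 0.45 under siSox2 (limma adjusted p = 0.232), and the dim Ctsh read between 4.55 and 5.06 on every array.

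Of the 3 lumenal proteins, Psap and Grn also rose. Psap read 10.12 and 9.82 in the controls and 10.93 and 11.33 under siSox2 (1.16, SE 0.18, limma adjusted p = 0.0131), a 2.23-fold rise. Grn read 10.40 and 10.39 against 11.05 and 11.24 (0.75, SE 0.13, limma adjusted p = 0.0196). All 3 probe sets of Grn were called, at 0.75, 0.80 and 0.69, and a second probe set of Psap gave 1.11 (limma adjusted p = 0.022).

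The remaining glycosidases did not share the fall of Manba: Gaa stood at 0.06 (limma adjusted p = 0.957) and Man2b1 at 0.01 (limma adjusted p = 0.995), while the sialidase Neu1 stood at 0.55 (limma adjusted p = 0.155). On the lysosomal membrane, Lamp2 stood at 0.53 (limma adjusted p = 0.111) and Lamp1 at 0.44 (limma adjusted p = 0.136). Tfeb, read at 7.31 and 7.41 in the controls and 7.73 and 7.93 under siSox2, stood at 0.47 (limma adjusted p = 0.172).

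In the autophagy machinery, the nearest to the threshold was Atg4b, at 7.64 on both control arrays and 8.11 and 8.16 under siSox2 (0.49, limma adjusted p = 0.0656). It passed with array weights (limma adjusted p = 0.0449), with 1 probe set per gene (0.0457) and with log2(intensity + 16) (0.0327). Gabarapl2, another ATG8 protein, stood at 0.56 (limma adjusted p = 0.127), and Wipi1 at 0.43 (limma adjusted p = 0.411). Ulk1, the kinase that starts autophagy, stood at -0.14 (limma adjusted p = 0.772) and the cargo receptor Nbr1 at -0.06 (limma adjusted p = 0.912). The median difference was 0.15 over the 20 autophagy members and 0.30 over the 20 lysosome members. Over all 41 members the median was 0.23 (0.13 without siNonTarget replicate 2), with 34 above 0 and 7 below, against -0.03 over all genes, and the 95% interval lay within 2-fold in either direction for 35 members.

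Markers of other cell types moved with siSox2. The mean level of 7 trophoblast markers was 5.12 to 5.17 on the control arrays, 7.61 to 7.98 under siSox2, 5.76 to 5.92 under siPsmd14 and 5.40 to 5.72 under siDdb1, and 5 of the 7 were called higher under siSox2. Of 7 markers of primitive or visceral endoderm, 3 were called higher under siSox2, with a mean of 5.10 to 5.31 against 4.30 to 4.36, and 1 of the 7 embryonic stem cell markers was called lower. The part of these cell types in the lysosomal genes was not tested. Of the 7 fibroblast and the 7 macrophage markers, 0 lay above 8 on both arrays of any group.

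The siSox2 count of 6 became 2 when siNonTarget replicate 1 was left out, 1 for siNonTarget replicate 2 and 2 for siSox2 replicate 2, when 0.786%, 0.340% and 0.675% of all probe sets were called. Manba was called each time, Ctsc was lost only with siNonTarget replicate 2 left out (1.76, limma adjusted p = 0.0520), and Ctsl, Ctsb, Psap and Grn were lost in all 3 cases.

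**Figure D3:**
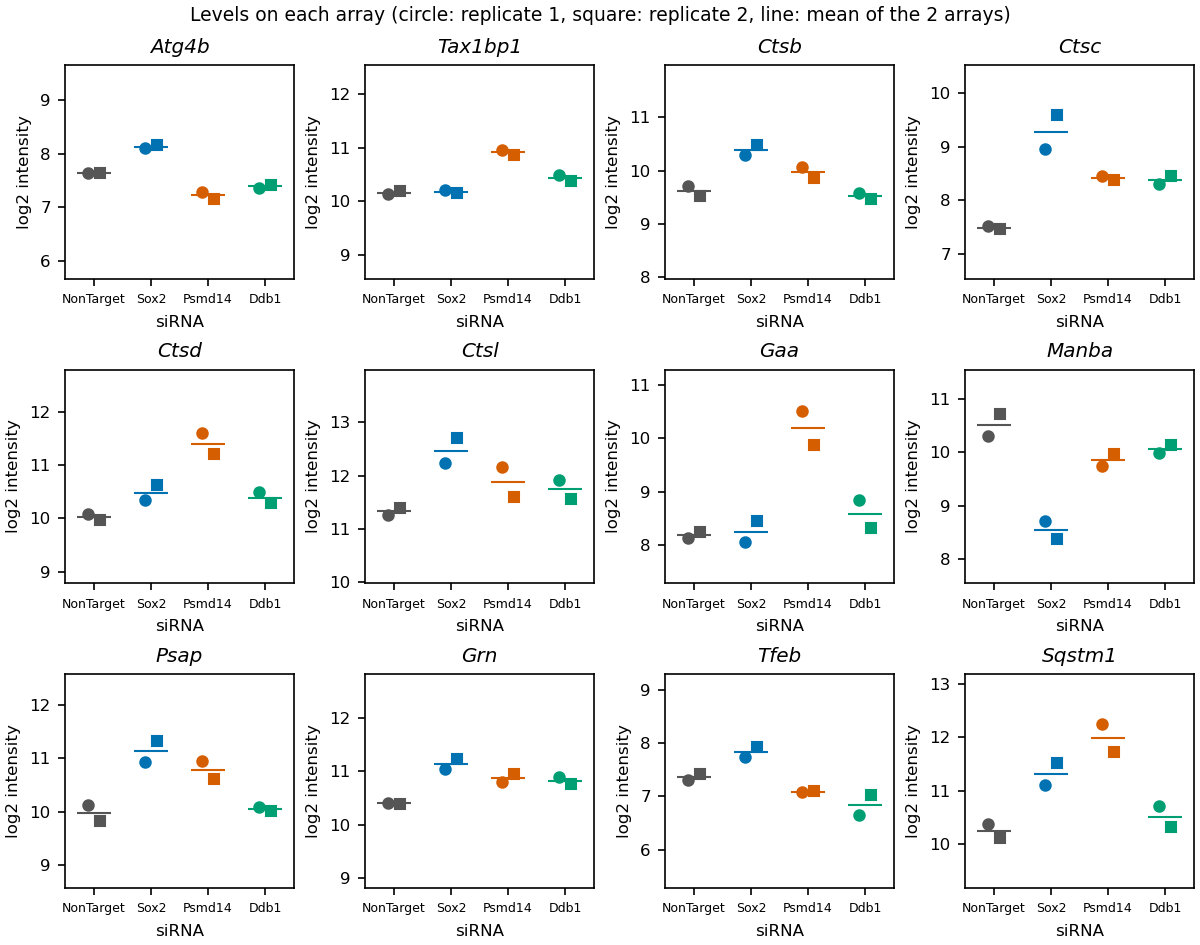
Log2 intensity on each array for the 11 members called in any comparison and for Sqstm1, by siRNA group; circles are replicate 1, squares replicate 2 and lines the mean of the 2 arrays. Manba is lower in siSox2 than in the other 3 groups, Gaa and Ctsd are highest in siPsmd14, and Tfeb and Atg4b lie above the controls in siSox2 and below them in siPsmd14 and siDdb1.

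Under siDdb1 none of the 41 members was called by limma, with 6 at an unadjusted p under 0.05 and a background of 0.0440% of genes called in either direction. Over all genes, 1794 of 18193 had an unadjusted limma p under 0.05. Man2b1 read 11.23 and 10.21 under siDdb1 against 9.78 and 9.66 in the controls (0.99, SE 0.28, limma adjusted p = 0.355). The higher Man2b1 value was on replicate 1, where Ddb1 read 9.67, and the higher Ctsc value on replicate 2, where Ddb1 read 10.73. The 2 arrays cannot show a relation to the level of Ddb1, which was not tested. Ctsc read 8.30 and 8.45 against 7.52 and 7.46 (0.89, SE 0.19, limma adjusted p = 0.244), and Grn 10.89 and 10.75 against 10.40 and 10.39 (0.42, SE 0.13, limma adjusted p = 0.414). In these 3 genes both siDdb1 arrays lay above both controls. They were named for their small p, and 2 arrays per group can separate by chance, so this adds no support.

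Lower readings were seen in Tfeb, Manba and Npc1, the cholesterol exporter of the lysosomal membrane. Tfeb read 6.64 and 7.02 under siDdb1 against 7.31 and 7.41 (-0.53, SE 0.15, limma adjusted p = 0.365). Manba read 9.98 and 10.14 against 10.31 and 10.72 (-0.46, SE 0.18, limma adjusted p = 0.556), and Npc1 6.89 and 6.99 against 7.48 and 7.17 (-0.39, SE 0.16, limma adjusted p = 0.579). None of the 3 overlapped with the controls, with the same limit.

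Within the autophagy machinery siDdb1 values stayed closer to the controls, between -0.25 and 0.27 over the 20 members. The smallest p of each role went to Ulk1 (-0.22, limma adjusted p = 0.818), the lipid scramblase Atg9a (-0.21, limma adjusted p = 0.831), Atg4b (-0.25, limma adjusted p = 0.654), the ATG8 protein Gabarap (-0.22, limma adjusted p = 0.738) and Tax1bp1 (0.27, limma adjusted p = 0.621). The median over all 41 members was 0.05, with -0.06 when siNonTarget replicate 2 was left out, 0.12 for siNonTarget replicate 1, 0.0162 for siDdb1 replicate 1 and 0.0076 for siDdb1 replicate 2, and the 95% interval lay within 2-fold for 39 of them, the exceptions being Ctsc and Man2b1. Without siDdb1 replicate 2, Man2b1 stood at 1.51, a value that rests on the 1 siDdb1 array left.

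The knockdowns were also set against each other, which uses no control array for the difference itself, although the comparisons share arrays with one another. Between siPsmd14 and siSox2, 4 members were higher under siPsmd14, against 1.98% of genes, and 2 were lower, against 2.05%. Among genes with a mean log2 intensity of at least 5 the shares were 2.82% and 2.95%. Of the members, Gaa differed most, by 1.95 (SE 0.24, limma adjusted p = 0.00499) or 3.86-fold, followed by Manba at 1.31 (SE 0.18, limma adjusted p = 0.00734), Ctsd at 0.92 (SE 0.17, limma adjusted p = 0.0247) and Tax1bp1 at 0.73 (SE 0.12, limma adjusted p = 0.0165). In this fit Gaa, Ctsd and Tax1bp1 thus read higher under siPsmd14 than under siSox2, and the alternatives that lost some of these calls are given below.

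The 2 members lower under siPsmd14 than under siSox2 were Atg4b and Tfeb, neither of which was called against the controls in the fit reported here. Atg4b read 7.29 and 7.16 under siPsmd14 and 8.11 and 8.16 under siSox2, a difference of -0.91 (SE 0.12, limma adjusted p = 0.00588), 1.88 times lower. Tfeb read 7.08 and 7.09 against 7.73 and 7.93 (-0.74, SE 0.15, limma adjusted p = 0.0397). For both genes the control arrays lay between the 2 knockdowns. With siSox2 replicate 2 left out, only the call of Gaa was kept. Those of Tax1bp1, Ctsd and Tfeb were lost with siSox2 replicate 1 or siPsmd14 replicate 1 left out. With either control array left out, those of Ctsd and Tfeb were lost. Fewer of all probe sets were called in each of these fits too. Tfeb was also lost with siPsmd14 replicate 2 left out. A fit on the 4 arrays alone lost Ctsd, Tax1bp1 and Tfeb, log2(intensity + 16) lost Ctsd and Tfeb, and trend and robust eBayes lost Tfeb (limma adjusted p = 0.0528 to 0.0935).

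Between siDdb1 and siSox2, 1 member was higher under siDdb1, against 2.03% of genes, and 5 were lower, against 2.60%. Among genes with a mean log2 intensity of at least 5 the shares were 2.88% and 3.69%. Manba was higher by 1.51 (SE 0.18, limma adjusted p = 0.00371). The members lower under siDdb1 were Psap (-1.07, SE 0.18, limma adjusted p = 0.0179), Tfeb (-1.0, SE 0.15, limma adjusted p = 0.0113), Ctsc (-0.90, SE 0.19, limma adjusted p = 0.0435), Ctsb (limma adjusted p = 0.0157) and Atg4b (-0.74, SE 0.12, limma adjusted p = 0.0136). Ctsb read 9.59 and 9.47 under siDdb1 and 10.29 and 10.48 under siSox2. With siSox2 replicate 2 or siDdb1 replicate 1 left out, Manba alone was kept, and with siDdb1 replicate 2 left out, Manba and Tfeb were. Each of these fits also called fewer of all probe sets. Ctsc was also lost with either siNonTarget or either siPsmd14 array left out, with 4 arrays only and with log2(intensity + 16), which lost Psap too (limma adjusted p = 0.0531). The mean of all probe sets lost Ctsc (-0.35) and Atg4b (-0.43).

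Between siPsmd14 and siDdb1, 2 members were higher under siPsmd14, against 0.456% of genes, and none was lower, against 0.132%. Among genes with a mean log2 intensity of at least 5 the shares were 0.641% and 0.169%. The 2 members were Gaa (1.62, SE 0.24, limma adjusted p = 0.0334), 3.07-fold higher, and Ctsd (1.01, SE 0.17, limma adjusted p = 0.0485), 2.02-fold higher. Both calls were lost with either siNonTarget array, siPsmd14 replicate 1 or either siDdb1 array left out. That of Ctsd was also lost with either siSox2 array left out. All of these fits called fewer of all probe sets as well. Both calls were kept with siPsmd14 replicate 2 left out, when more of all probe sets were called. Over the alternatives the difference ran from 1.30 to 1.94 for Gaa and from 0.82 to 1.21 for Ctsd.

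**Figure D4:**
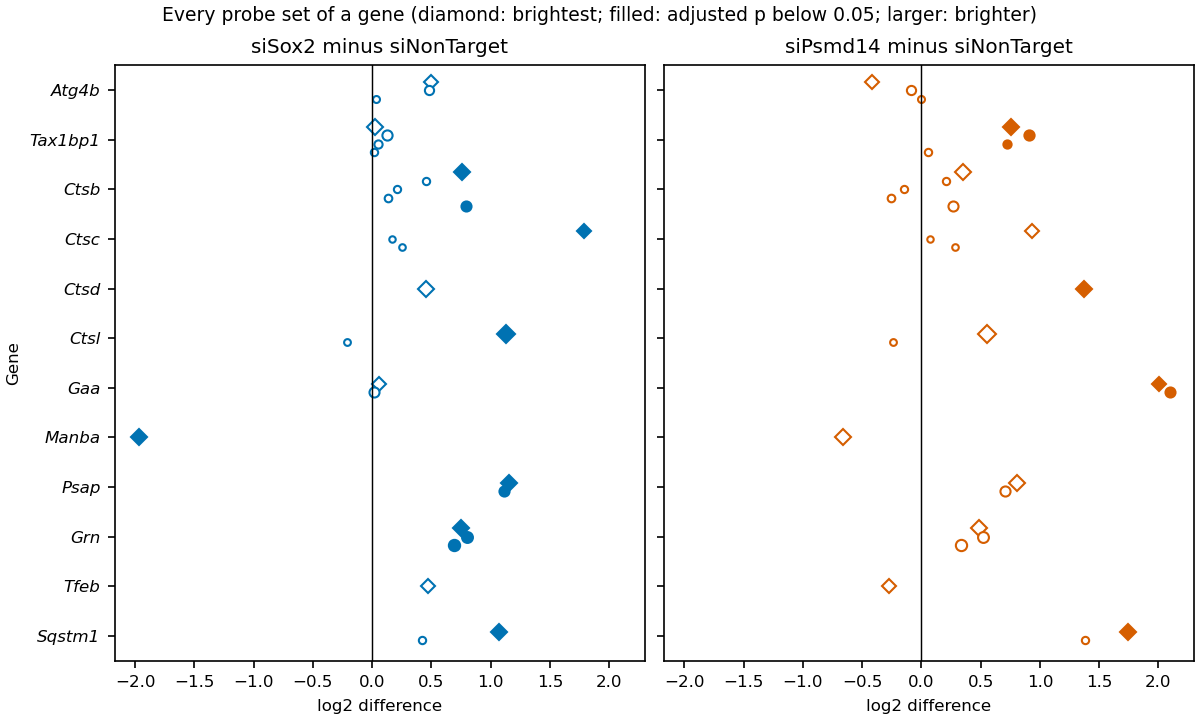
Log2 difference from siNonTarget of every probe set of the 11 called members and Sqstm1 under siSox2 and siPsmd14; diamonds are the brightest probe set of a gene, filled symbols have an adjusted p below 0.05 in limma, and larger symbols are brighter. The second probe set of Gaa (2.10) lies beside the first under siPsmd14, and dim probe sets of Ctsc (0.16 and 0.25) and Ctsl (-0.21) lie near 0 under siSox2.

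Among 87 further measured genes of the same pathways, 5 were called higher and 1 lower under siSox2, 1 higher under siPsmd14 and 0 under siDdb1 (limma, 3 with an unadjusted p under 0.05). Over all genes, 2.81% were called higher and 1.46% lower under siSox2, and 1.70% higher under siPsmd14. Under siDdb1 0.0440% of all genes were called, and 1794 of 18193 had an unadjusted p under 0.05 in limma. Sqstm1, the cargo receptor p62, was called in both siSox2 and siPsmd14. It read 10.38 and 10.11 on the controls, 12.26 and 11.72 under siPsmd14, 11.10 and 11.53 under siSox2 and 10.71 and 10.32 under siDdb1. The rise was 1.75 (SE 0.23, limma adjusted p = 0.0120) or 3.35-fold under siPsmd14, and 1.07 (limma adjusted p = 0.0423) or 2.10-fold under siSox2. The siDdb1 arrays overlapped with the controls, and siPsmd14 exceeded siDdb1 by 1.47 (limma adjusted p = 0.0378). That last call was lost with array weights (limma adjusted p = 0.0519), with 4 arrays only (0.155) and with log2(intensity + 16) (0.124). Without siPsmd14 replicate 1 the siPsmd14 rise of Sqstm1 was 1.48 (limma adjusted p = 0.0830), and without siNonTarget replicate 1 or 2 its limma adjusted p was 0.0946 or 0.148. The siSox2 rise was lost with either control array left out (limma adjusted p = 0.136 and 0.290) or siSox2 replicate 2 left out (0.86, limma adjusted p = 0.330).

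Of the other genes called under siSox2, 4 rose and Scarb2 fell. Gm2a, the activator protein for ganglioside breakdown, read 7.96 and 7.99 in the controls and 9.05 and 9.92 under siSox2 (1.51, limma adjusted p = 0.0124). Smpd1, the acid sphingomyelinase, read 6.95 and 7.01 against 7.87 and 8.32 (1.12, limma adjusted p = 0.0107). Vamp8, a SNARE protein of autophagosome-lysosome fusion, read 7.57 and 7.13 against 8.69 and 8.96 (1.48, limma adjusted p = 0.0437). Atp6ap1, an accessory subunit of the proton pump that acidifies the lysosome, rose by 0.61 (limma adjusted p = 0.0467). Scarb2, the receptor that carries glucocerebrosidase to the lysosome, read 10.29 and 10.17 in the controls and 9.64 and 9.06 under siSox2, and fell by 0.88 (limma adjusted p = 0.0422). None of the further genes was called under siSox2 with either siNonTarget array left out. Fewer than in the main fit were called with siSox2 replicate 2 or either siDdb1 array left out. All of these fits called fewer of all probe sets too. On the scale of log2(intensity + 16) the calls of Sqstm1, Gm2a, Vamp8 and Scarb2 were lost (limma adjusted p = 0.0558 to 0.115 under siSox2, and 0.0594 for Sqstm1 under siPsmd14). A fit on 4 arrays lost Scarb2 and Atp6ap1, the replicate block lost Atp6ap1, and the mean of all probe sets lost Sqstm1 under siSox2 (0.75, limma adjusted p = 0.143). The median over the 87 genes was 0.09 under siSox2, 0.10 under siPsmd14 and 0.04 under siDdb1.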

How the data were processed

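The deposited table holds 1 intensity per probe set and array on a linear scale, made by the authors with RMA, per the submitters' processing notes, its version not given in the sources used here. The starting material was 5 ng of total RNA per array, amplified to biotin-labelled cDNA (per the labels). RMA gives all arrays nearly the same distribution, so a change in total RNA per cell would not show.

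From these values, 64 control probe sets were left out, log2 was taken and limma 3.58.1 (R 4.3.3; lmFit and eBayes, group means over all 8 arrays) was fitted to 45037 probe sets, with no filter on dim ones. Residual degrees of freedom, prior included, came to 9.02. Of these probe sets, 34945 had 1 gene symbol, 932 several and 9160 none in the platform annotation; no symbol needed updating. A probe set with several symbols named no gene. The fit was tested on simulated data. Named with the value of every array were members past the threshold in any of the 6 comparisons and the 6 smallest p-values per knockdown; of each role, the smallest p; of the further genes, those past the threshold. The members, the 93 further pathway genes (87 measured), the marker lists and the tests were chosen with earlier results of these data known. Promoter windows were read from RefSeq's table for GRCm38.p6. Settings tried numbered 21, 1 of them added after the data were seen. Deviations of same-numbered arrays correlated weakly and with mixed signs (-0.22 to 0.24 over probe sets). Replicate numbers were therefore not used as a block in the main fit, and a block was run as an alternative.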

Additional observations from a re-analysis of the deposited data

Results flagged for a closer look

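Atg4b and Tfeb stood on opposite sides of the control arrays in different knockdowns, with a direct difference past the threshold in limma. Both siSox2 arrays lay above both siNonTarget arrays and both siPsmd14 arrays below them, with siPsmd14 minus siSox2 at -0.91 for Atg4b and -0.74 for Tfeb. The siDdb1 arrays lay below the controls as well, with siDdb1 minus siSox2 at -0.74 for Atg4b and -1.0 for Tfeb. These comparisons share the siSox2 arrays, and neither gene passed the threshold against the controls in the fit reported here. Under 3 alternatives Atg4b did pass in siSox2 against siNonTarget, with a lowest adjusted p of 0.0327 in limma. No technical or biological cause was tested.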

How the results depend on the processing

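Each member count was recomputed under 21 alternatives, and no called difference changed sign; some differences near 0 that were not called did, such as Gaa (-0.14 to 0.25) and Man2b1 (-0.12 to 0.07) under siSox2. Members called numbered 6 for siSox2, 3 for siPsmd14 and 0 for siDdb1 against siNonTarget, 6 for siPsmd14 against siSox2, 6 for siDdb1 against siSox2 and 2 for siPsmd14 against siDdb1. An adjusted p threshold of 0.01 gave 2 (siSox2), 2 (siPsmd14), 3 (siPsmd14 against siSox2), 1 (siDdb1 against siSox2) and 0 (siPsmd14 against siDdb1). A 2-fold minimum gave 4 (siSox2, without Ctsb and Grn), 2 (siPsmd14, without Tax1bp1), 2 (siPsmd14 against siSox2) and 3 (siDdb1 against siSox2). The highest counts over all alternatives were 7 (siSox2), 8 (siPsmd14 against siSox2) and 9 (siDdb1 against siSox2). Trend and robust eBayes gave 5 (siPsmd14). For siPsmd14 against siDdb1, array weights, the filter on dim probe sets, the replicate block and the block with siDdb1 numbers crossed, which was chosen after the data were seen, each gave 1, while log2(intensity + 16) and a fit on 4 arrays gave 0. The replicate block otherwise gave 6, 4 and 0 against siNonTarget, in the order above. Leaving out 1 array at a time gave 1 to 6 (siSox2), 0 to 5 (siPsmd14), 0 to 1 (siDdb1), 1 to 7 (siPsmd14 against siSox2), 1 to 7 (siDdb1 against siSox2) and 0 to 4 (siPsmd14 against siDdb1). Of the further pathway genes, 6 were called for siSox2 (0 at 0.01, 3 with log2(intensity + 16), 0 to 5 leaving out an array) and 1 for siPsmd14 (2 with 1 probe set per gene or 4 arrays only, 0 at 0.01 or with log2(intensity + 16), 3 with trend and robust eBayes or the mean of probe sets, 0 to 4 leaving out an array). Manba in siSox2 against siNonTarget and in siDdb1 against siSox2, and Gaa in siPsmd14 against siSox2, stayed under an adjusted p of 0.05 in every alternative run. With 1 array left out, the lone array of its group was assumed to vary like the other groups, and the number of arrays limits all these counts. The share of all probe sets called also changed from fit to fit when an array was left out. The member counts of those fits are therefore not read as a result about the members.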
